A study of Mus musculus with 12 samples.

Results

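The KO line of a mouse osteocyte-like cell line was followed here over its first 14 days of differentiation. The KO day 14 group and the KO day 1 group hold 2 poly(A) RNA-seq libraries each, so 4 of the 12 libraries of the series were taken by their column names, and their change was described across all 13772 genes with enough reads. The cells are OCY454, mouse cells whose large T antigen works at low temperature, propagated at 33 °C and made to differentiate by a move to 37 °C. The KO cells had exons 19 to 21 of Piezo1 removed by CRISPR-Cas9 editing, and were collected 14 days or 1 day after the move to 37 °C. Unedited WT cells of the same days, with 2 libraries each, are used below only to set the same interval in the WT line beside the KO values. In a difference between the lines, the deletion and any other difference between the KO and WT cells cannot be told apart. The day 28 libraries of both lines enter the choice of genes with enough reads, the scaling and the shared estimate of spread. Their levels are given only for Piezo1 and for an entry that is not a mouse gene. All groups share the large T antigen, the culture medium with 10% serum and the temperature change, and no agent was added to any of them. The labels do not say how many edited clones the KO line represents, nor whether the 2 replicates of a group were separate cultures. The p-values below therefore measure the spread between libraries only, pooled over all 12.

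Osteoblasts lay down the collagen matrix of bone, and some of them become buried in it as osteocytes, which keep contact through long dendrites. Fibrillar collagen chains are hydroxylated and folded in the endoplasmic reticulum, secreted, cross-linked by lysyl oxidases and then mineralized. Piezo1 is a mechanically gated cation channel through which bone cells sense load, and the comparison asks how cells without its normal form pass through this program.

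Total counts were 10868159 and 11927860 in the KO day 14 libraries and 11629059 and 13479128 in the KO day 1 libraries. Levels are CPM (counts scaled to the size of the library by TMM), changes are log2 fold changes of day 14 over day 1 with the standard error after ±, and adjusted p is that of edgeR's quasi-likelihood test with Benjamini-Hochberg adjustment over all genes, called below 0.05. Where leaving out 1 library moved a count of list members by more than 1.5-fold, the count without it is given in the same paragraph. Replicates lay close together: 4 of 9232 genes with at least 10 CPM differed by more than 1.5-fold between the KO day 14 libraries, and 2 of 9227 between the KO day 1 libraries. The day 28 libraries, which also enter the estimate of spread, lay further apart. There 54 of 9083 genes differed so in KO and 154 of 9326 in WT. In a principal component analysis of the 8 libraries of days 14 and 1, the second component, with 23.9% of the variance, placed the KO libraries at 38.5 and 37.6 at day 14 and at -28.3 and -28.7 at day 1. The first, with 58.8%, separated the lines. Exons of another gene overlap some of the genes named below, among them Runx2, Eln, Col3a1, Loxl2, P3h2, Ankrd37, Ddit3, Hsp90b1, Hmgcs1, Psmb8 and Ccn2, and the counts of those genes are less certain.

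Piezo1 itself, chromosome 8, 122481698 to 122551329 on the minus strand (GRCm38/mm10), was read in every KO library, with 114 and 108 CPM at day 14, against 169.8 and 169 CPM at day 1. Its change was -0.61 ± 0.06, adjusted p = 1.33e-07. It had 211 and 206 CPM in WT day 14, against 216 and 214 CPM in WT day 1, a change of -0.05 ± 0.06, adjusted p = 0.586, and the difference of change was -0.57 ± 0.09, adjusted p = 7.86e-05. The day 28 libraries held 281.5 and 275.6 CPM in KO, against 235.1 and 241.8 CPM in WT. Both KO libraries thus lay below both WT libraries at days 1 and 14 and above them at day 28. The removed exons are a small piece of the transcript, so the count of the whole gene says little about the deletion. Exons of Ctu2 overlap Piezo1 on the opposite strand, and the labels do not tell whether reads were counted by strand.

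Between day 1 and day 14 the KO line called 5158 of 13772 genes, or 37.5%, of which 2675 (19.4%) were higher at day 14 and 2483 (18.0%) lower. The counts of every gene list below are to be read against these shares of all genes. Changes of more than 2-fold were fewer, with 577 genes (4.19%) higher and 438 (3.18%) lower. The median change over all genes was 0.00. The day 14 libraries did not overlap the day 1 libraries in CPM for 10038 genes, or 72.9%, so lack of overlap alone is a weak criterion with 2 libraries a group. Among genes that reached 10 CPM, 6 had under 1 CPM at day 1 and 1 had under 1 CPM at day 14. The 6 were Adamtsl1, an ADAMTS-like secreted matrix protein, the elastin gene Eln, the orphan receptor gene Gpr35, the mitochondrial adenylate kinase gene Ak4, the mitochondrial protein gene Ndufa4l2 and the transporter gene Abca8a. The other was the annexin gene Anxa8.

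**Figure D1:**
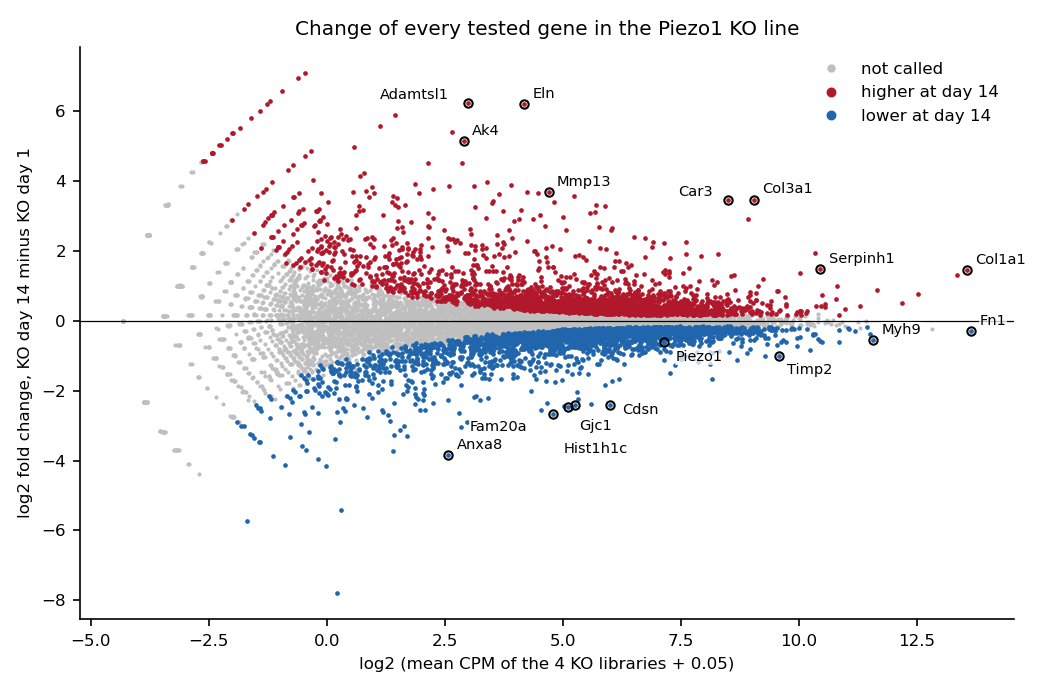
Change of each of the 13772 tested genes between KO day 14 and KO day 1 (vertical axis, log2 fold change) against its mean level in the 4 KO libraries (horizontal axis, log2 CPM plus 0.05). Red points were called higher and blue points lower at adjusted p below 0.05, grey points were not called, and circles mark some of the genes named in the text; the collagen genes Col1a1 and Col3a1 lie far right and above 0, and Fn1 lies far right just below it.

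Genes of the extracellular matrix were among the 12 largest rises. Eln showed 37.1 and 34.5 CPM at day 14 and 0.512 and 0.441 CPM at day 1, so both day 14 libraries lay far above both day 1 libraries (6.21 ± 0.40, adjusted p = 1.44e-10). Adamtsl1 had 12.7 and 18.3 CPM at day 14, against 0.0854 and 0.294 CPM at day 1, where it rested on 1 and 4 counts, a change of 6.23 ± 0.43, adjusted p = 4.08e-10. Others among the 12 highest were Papss2, which makes the sulfate donor of proteoglycans (3.88 ± 0.20), the prolyl hydroxylase gene P3h2 (3.86 ± 0.27), the collagenase gene Mmp13 (3.69 ± 0.26) and Aspn, the small leucine-rich proteoglycan asporin (3.65 ± 0.21). The amino acid transporter gene Slc36a2 (3.68 ± 0.23), Plppr5 (3.99 ± 0.22), Gpr35 (5.42 ± 0.47), Ndufa4l2 (4.52 ± 0.48), Abca8a (3.86 ± 0.26) and Ak4 (5.15 ± 0.35) completed them. Car3, a carbonic anhydrase gene outside the 12 highest and chosen after its values were seen, had 665 and 655 CPM at day 14 and 62.6 and 57.1 CPM at day 1 (3.46 ± 0.11, adjusted p = 3.97e-15).

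The lowest changes included the histone genes Hist1h1c (-2.46 ± 0.15) and Hist1h2bc (-2.36 ± 0.15). Histone gene copies are near-identical and many of their transcripts lack a poly(A) tail, so these counts are uncertain. Anxa8 stood at 0.755 and 0.771 CPM at day 14, against 11.6 and 10.4 CPM at day 1 (-3.83 ± 0.28, adjusted p = 1.44e-09). Fam20a, which encodes a pseudokinase partner of the secretory kinase Fam20c, fell to 6.99 and 8.06 CPM at day 14, against 48.6 and 47.5 CPM at day 1 (-2.67 ± 0.15, adjusted p = 2.14e-11). The others were the phosphatase gene Ppm1l (-3.04 ± 0.24), the Ras effector gene Rin1 (-2.63 ± 0.28), the corneodesmosin gene Cdsn (-2.42 ± 0.10), the calcium-binding protein gene S100a4 (-2.36 ± 0.20), the connexin 45 gene Gjc1 (-2.42 ± 0.10), Klhl30 (-2.43 ± 0.15), Zc3h6 (-2.54 ± 0.12) and the locus Gm28050 (-2.90 ± 0.27).

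The labels call the cells osteoblast and osteocyte. The osteoblast genes Runx2, Sp7, Col1a1, Ibsp and Alpl were plentiful in all 4 KO libraries, while the osteocalcin gene Bglap2 was far lower. Among osteocyte markers Dmp1, Sost, Mepe, Phex and Fgf23 were scarce. Of 13 osteocyte markers 12 could be tested, and 2 rose, 4 fell and 6 were not called, with a median of -0.31 against 0.00 over all genes. The 2 became 1 without KO day 1 replicate 1 and 0 without either KO day 14 library or KO day 1 replicate 2, and the 4 became 2 without KO day 1 replicate 2. Dmp1, a secreted regulator of mineral and phosphate, reached 7.27 and 7.29 CPM at day 14, against 5.47 and 3.68 CPM at day 1, which was a small rise (0.68 ± 0.26, adjusted p = 0.0422). That call was lost without KO day 1 replicate 2 (0.41), KO day 14 replicate 1 (0.68) or KO day 14 replicate 2 (0.68). Sost, the gene of the Wnt inhibitor sclerostin, had 0.755 and 0.343 CPM at day 14 and 1.28 and 0.515 CPM at day 1, and the day 14 and day 1 libraries overlapped (-0.69 ± 0.61, adjusted p = 0.404). Mepe, another phosphate-regulating matrix gene, had 1.23 and 1.20 CPM at day 14, against 1.28 and 1.10 CPM at day 1 (0.03 ± 0.48, adjusted p = 0.97). Fgf23, the phosphate hormone gene, had 0 and 1 counts at day 14 and 0 and 0 at day 1 and was not tested.

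Phex, Pdpn, Capg and Fam20c were the 4 that fell. Phex, the endopeptidase gene mutated in X-linked hypophosphatemia, fell to 4.62 and 4.12 CPM at day 14, against 11.4 and 10.1 CPM at day 1 (-1.29 ± 0.22, adjusted p = 8.07e-05). Pdpn, which encodes the dendrite protein podoplanin, fell to 40.4 and 38.1 CPM at day 14, against 52.8 and 59.9 CPM at day 1 (-0.52 ± 0.13, adjusted p = 0.00323). The actin-capping gene Capg (-0.53 ± 0.10, adjusted p = 0.000425) and the Golgi kinase gene Fam20c (-0.28 ± 0.10, adjusted p = 0.0305) fell less. The call of Pdpn was lost without KO day 1 replicate 2 (-0.43) and that of Fam20c without KO day 1 replicate 2 (-0.22) or KO day 14 replicate 1 (-0.19). Mef2c, a transcription factor that acts on the Sost enhancer, rose (0.38 ± 0.12, adjusted p = 0.0172). That call was lost without any 1 of the 4 KO libraries (0.38 in each). Irx5 (0.26 ± 0.12, adjusted p = 0.0986), Dstn (0.11 ± 0.07, adjusted p = 0.207), Ptprz1 (-0.34 ± 0.63, adjusted p = 0.704) and Ackr3 (-0.79 ± 0.79, adjusted p = 0.459) were not called, though Irx5 was without either WT day 28 library (0.26 in both). In bulk RNA, fewer cells of a state and less of its RNA in each cell cannot be told apart, here and in every list below.

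Transcription factors of the osteoblast lineage rose in the KO line. Of 10, 6 rose and 1 fell, with a median of 0.78. Runx2, the lineage-determining factor, had 342 and 314 CPM at day 14 and 210.3 and 204 CPM at day 1 (0.66 ± 0.09, adjusted p = 1.03e-05). Sp7, which acts after Runx2, had 527 and 512 CPM at day 14, against 278 and 279.6 CPM at day 1 (0.90 ± 0.15, adjusted p = 0.000103). For both genes the groups did not overlap. The homeobox genes Dlx3 (3.04 ± 0.25, adjusted p = 6.73e-09) and Dlx5 (0.89 ± 0.10, adjusted p = 8.68e-07) and the bHLH gene Twist1 (0.90 ± 0.11, adjusted p = 9.03e-07) also rose, and Sox4 fell (-0.40 ± 0.12, adjusted p = 0.013). That call was lost without KO day 1 replicate 1 (-0.36), KO day 14 replicate 1 (-0.41) or KO day 14 replicate 2 (-0.39). Dlx6 (0.15 ± 0.16), Msx1 (-0.63 ± 0.25) and Msx2 (0.60 ± 0.32) were not called. Without either WT day 28 library Msx1 (-0.62 in both) and Msx2 (0.60 in both) were called, and without either KO day 28 library so was Msx1 (-0.63 in both).

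In the WT line the same interval gave smaller values for several of these factors. There Runx2 was at -0.24 ± 0.10, Sp7 at -0.08 ± 0.16 and Dlx5 at -0.07 ± 0.10, none of them called, while 4696 of 13772 genes (34.1%) were called. Runx2 was called lower in WT without WT day 1 replicate 1 (-0.34) and without either WT day 28 library (-0.24 in both). It was also called lower there with library totals in place of TMM (-0.30), with no filter (-0.23), with only the 4 WT libraries (-0.23) and with a replicate block (-0.24). The test of the difference in change, KO minus WT, by the same edgeR fit, gave 0.90 ± 0.13, adjusted p = 6.11e-05 for Runx2, 0.97 ± 0.22, adjusted p = 0.00329 for Sp7 and 0.96 ± 0.15, adjusted p = 8.76e-05 for Dlx5. With DESeq2 the Sp7 difference was not called (0.97, adjusted p = 0.0761). Over all genes that difference was called for 2595, or 18.8%.

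Bone matrix genes rose, type I collagen foremost in CPM. CPM are not divided by transcript length, so such gains rank long and abundant transcripts together. Of 20 matrix genes 14 rose and 2 fell, with a median of 0.83, and their summed level was 63460 and 63710 CPM at day 14 and 37210 and 37470 CPM at day 1. The rise was largely shared with WT, where the median was 0.64. Their summed level there was 49120 and 50030 CPM in WT day 14, against 34160 and 34590 CPM in WT day 1. The difference of change was not called for 10 of the 20. Col1a1, the gene of the main chain of type I collagen, had 17930 and 17680 CPM at day 14 and 6416 and 6512 CPM at day 1 (1.46 ± 0.16, adjusted p = 3.26e-07). Col1a2, the other chain, had 14900 and 14930 CPM at day 14, against 5956 and 6006 CPM at day 1 (1.32 ± 0.11, adjusted p = 5.58e-09). Col3a1, the type III collagen gene, had 913 and 1033 CPM at day 14 and 89.4 and 86.2 CPM at day 1 (3.47 ± 0.16, adjusted p = 1.05e-12). Col5a2 (0.78 ± 0.08), the matrix glycoprotein gene Sparc (0.88 ± 0.12) and the periostin gene Postn (1.37 ± 0.10) rose as well, as did Bgn (0.49 ± 0.10), Dcn (2.15 ± 0.20) and Fbn1 (1.04 ± 0.13). Col5a1 was at 0.33 ± 0.10, adjusted p = 0.0109. That call was lost without KO day 1 replicate 1 (0.33), KO day 1 replicate 2 (0.33) or KO day 14 replicate 2 (0.31). Outside the list, Col11a1 (1.93 ± 0.09) and Col6a3 (0.50 ± 0.11) were among the 10 largest gains.

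The mineral-binding matrix genes differed among themselves. Ibsp, bone sialoprotein, had 2349 and 2438 CPM at day 14, against 1236 and 1179 CPM at day 1 (0.99 ± 0.13, adjusted p = 5.37e-06). Spp1, osteopontin, had 71.5 and 70.0 CPM at day 14 and 74.7 and 73.1 CPM at day 1 and was not called (-0.06 ± 0.09, adjusted p = 0.609). The osteocalcin gene Bglap2 had 15.9 and 16.5 CPM at day 14, against 11.3 and 12.1 CPM at day 1 (0.47 ± 0.16, adjusted p = 0.0251), Bglap3 was at 2.05 ± 0.48, adjusted p = 0.00182 and Bglap at 0.54 ± 0.32, adjusted p = 0.198. The Bglap2 call was lost without any 1 of the 4 KO libraries (0.42 to 0.52). These 3 copies are near-identical, so reads may have been shared out or lost among them. Mgp, which encodes an inhibitor of calcification, fell to 44.4 and 57.4 CPM at day 14, against 97.5 and 94.7 CPM at day 1 (-0.91 ± 0.17, adjusted p = 0.000262), and Fn1, the gene of the early scaffold protein fibronectin, fell to 11660 and 11580 CPM at day 14, against 14110 and 14280 CPM at day 1 (-0.29 ± 0.07, adjusted p = 0.00222). Omd (-0.13 ± 0.15) and Lum (-0.47 ± 0.42) were not called.

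**Figure D2:**
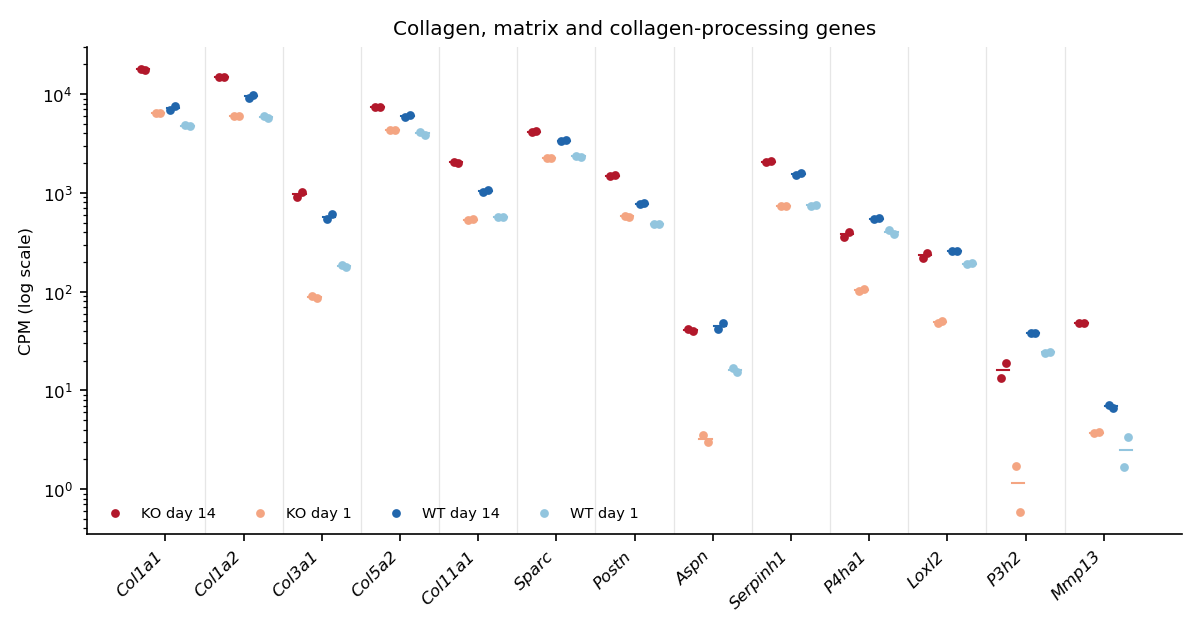
Level of 13 matrix and collagen-processing genes in each library (vertical axis, CPM on a log scale), with KO day 14, KO day 1, WT day 14 and WT day 1 side by side; points are single libraries and short lines the mean of 2. Col1a1 stood at 17930 and 17680 CPM in KO day 14, above the other 3 groups, and P4ha1, Loxl2 and P3h2 were lowest in KO day 1.

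Genes that mineralize the matrix split. Of 10, 4 rose and 3 fell, with a median of 0.35. The 3 became 1 without KO day 1 replicate 2 or KO day 14 replicate 2. Alpl, the alkaline phosphatase that frees phosphate, had 991 and 942 CPM at day 14 and 535 and 541 CPM at day 1 (0.84 ± 0.14, adjusted p = 7.65e-05). Ifitm5, an osteoblast membrane protein gene, had 63.3 and 65.0 CPM at day 14, against 16.8 and 17.7 CPM at day 1 (1.89 ± 0.15, adjusted p = 5.59e-09). Smpd3, a sphingomyelinase gene needed for mineralization, was at 0.53 ± 0.19, adjusted p = 0.029, and the mineral-binding serum protein gene Ahsg had 9 and 7 counts at day 14 and none at day 1, at least 6.06-fold higher. Ank, the pyrophosphate exporter gene, fell (-0.57 ± 0.10, adjusted p = 0.000111), as did the phosphate carrier gene Slc20a1 (-0.22 ± 0.08, adjusted p = 0.0293) and Cd276 (-0.27 ± 0.10, adjusted p = 0.0327). The calls were lost without any 1 of the 4 KO libraries (0.48 to 0.58) for Smpd3, without KO day 1 replicate 1 (-0.23), KO day 1 replicate 2 (-0.21) or KO day 14 replicate 2 (-0.16) for Slc20a1 and without KO day 1 replicate 2 (-0.18), KO day 14 replicate 1 (-0.33) or KO day 14 replicate 2 (-0.21) for Cd276. Phospho1 (0.17 ± 0.10), Enpp1 (0.58 ± 0.33) and Slc20a2 (-0.04 ± 0.09) were not called. In WT Alpl was at -0.22 ± 0.14, not called, and was called lower with no filter (-0.22), with only the 4 WT libraries (-0.22) and without either WT day 28 library (-0.22 in both). For Alpl the difference was 1.07 ± 0.20, adjusted p = 0.000661.

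The enzymes that modify and cross-link collagen rose more in KO than in WT. Of 21, 16 rose and 1 fell in KO, with a median of 0.60, against 10 and 3 in WT with a median of 0.04. The count of those that fell in KO was 0 without any 1 of the 4 KO libraries or either WT day 1 library. The difference of change was called for 17 of the 21, all of them higher in KO. P4ha1, a catalytic subunit of prolyl 4-hydroxylase, had 359 and 404 CPM at day 14 and 102 and 107 CPM at day 1 (1.87 ± 0.13, adjusted p = 7.13e-10), and its change in WT was 0.45 ± 0.12, adjusted p = 0.00756, not called with DESeq2 (0.45) or without WT day 1 replicate 2 (0.39). The lysyl oxidase-like gene Loxl2 had 221 and 244 CPM at day 14, against 48.4 and 51.1 CPM at day 1 (2.22 ± 0.12, adjusted p = 8.91e-12). Loxl2 had 260.5 and 260.0 CPM in WT day 14, against 189 and 193 CPM in WT day 1. P3h2, a prolyl 3-hydroxylase gene, had 13.4 and 18.9 CPM at day 14 and 1.71 and 0.589 CPM at day 1. P3h2 had 38.1 and 37.8 CPM in WT day 14, against 24.1 and 24.5 CPM in WT day 1. For these 3 genes KO day 1 was the low group, and KO day 14 stayed below WT day 14. P4ha2 (1.51 ± 0.10), Loxl4 (2.05 ± 0.10), the lysyl hydroxylase gene Plod2 (1.44 ± 0.07), P3h1 (1.08 ± 0.08) and Serpinh1, the collagen chaperone HSP47 (1.49 ± 0.06), rose. Sec24d, a coat protein gene for large cargo (0.76 ± 0.08), and Creb3l1, a transcription factor of the secretory pathway (0.60 ± 0.13), rose with them.

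Among matrix proteases and their inhibitors 8 of 22 rose and 5 fell. Mmp13 had 47.8 and 48.4 CPM at day 14, against 3.67 and 3.75 CPM at day 1. Mmp13 had 7.08 and 6.71 CPM in WT day 14, against 1.69 and 3.35 CPM in WT day 1, a difference of change of 2.23 ± 0.47, adjusted p = 0.00178 that was not called without WT day 1 replicate 2 (1.66). Serpine2 (1.83 ± 0.12) and Adamts1 (1.61 ± 0.08) rose, Mmp11 fell (-1.31 ± 0.12), and the metalloproteinase inhibitor gene Timp2 fell to 508 and 508 CPM at day 14, against 1003 and 1024 CPM at day 1 (adjusted p = 2.28e-09). The carbonic anhydrase gene Car2, neither a protease nor an inhibitor of one, also rose (1.42 ± 0.16). Of 7 factors that regulate osteoclasts, 4 rose and 1 fell. They included the decoy receptor gene Tnfrsf11b, osteoprotegerin (0.78 ± 0.14, adjusted p = 0.000159), and Ccn4 (0.87 ± 0.08), with Sema3a lower (-0.71 ± 0.08). The osteoclast ligand gene Tnfsf11 was at or under 1 count in each day 14 library and was not tested.

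Targets of hypoxia-inducible factor (HIF), the transcription factor that oxygen-dependent prolyl hydroxylases keep low, rose together. Of 19, 13 rose and 0 fell in KO, with a median of 0.95 (0.97 with 1 member of 3 or fewer counts in a group set at its ratio). In WT 5 rose and 2 fell, with a median of -0.02; the 2 became 1 without WT day 1 replicate 1 or WT day 14 replicate 2 and 0 without WT day 14 replicate 1. The difference of change was called higher in KO for 12 and lower for 0. The summed level of the list was 1576 and 1773 CPM in KO day 14, against 882.3 and 884.8 CPM in KO day 1. It was 2680 and 2760 CPM in WT day 14, against 2594 and 2539 CPM in WT day 1. The list thus rose in KO from a low day 1 level and stayed below WT. HIF binds a short core, ACGTG or GCGTG, and this core was searched on both strands of RefSeq promoter windows from 250 bases before to 50 after the start (GRCm38.p6). All 15 members with a window held it, but so did 67.2% of the 10537 tested genes with a window, so it does not set the list apart. The windows of Ankrd37, an ankyrin repeat gene, and Egln3, a HIF prolyl hydroxylase gene that HIF itself induces, are shown with the core in capitals because they belong to 2 of the 3 members that rose most. Ankrd37 lies on the minus strand at chr8:45999801-46000100 and has 4 matches, 2 of which overlap, and Egln3 on the minus strand at chr12:54203825-54204124 and has 1.
Ankrd37: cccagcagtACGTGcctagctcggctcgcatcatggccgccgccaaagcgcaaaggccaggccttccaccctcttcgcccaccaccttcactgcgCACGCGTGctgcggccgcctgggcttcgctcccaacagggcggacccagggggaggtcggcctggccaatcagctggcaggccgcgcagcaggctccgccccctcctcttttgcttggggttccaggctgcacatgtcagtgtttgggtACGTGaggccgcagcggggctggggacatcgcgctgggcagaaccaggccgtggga
Egln3: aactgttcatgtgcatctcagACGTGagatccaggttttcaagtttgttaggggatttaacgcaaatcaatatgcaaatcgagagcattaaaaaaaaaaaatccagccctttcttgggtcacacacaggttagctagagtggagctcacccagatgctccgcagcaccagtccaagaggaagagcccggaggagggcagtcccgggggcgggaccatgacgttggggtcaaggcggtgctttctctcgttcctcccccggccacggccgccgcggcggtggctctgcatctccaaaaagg

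Ankrd37 had 23.1 and 31.3 CPM at day 14, against 3.59 and 3.83 CPM at day 1 (2.87 ± 0.23, adjusted p = 5.58e-09). Ankrd37 had 25.4 and 24.3 CPM in WT day 14, against 39.8 and 34.1 CPM in WT day 1, so it rose in KO and fell in WT, where the call was lost with DESeq2 (-0.57), without WT day 1 replicate 1 (-0.46) or without either WT day 14 library (-0.61 and -0.54), and the difference was 3.44 ± 0.29, adjusted p = 4.9e-08. Egln3 had 20.1 and 26.4 CPM at day 14 and 1.37 and 2.28 CPM at day 1 (3.65 ± 0.37, adjusted p = 1.17e-07). Egln3 had 66.3 and 72.0 CPM in WT day 14, against 19.4 and 22.7 CPM in WT day 1. Ak4 had 12.7 and 16.1 CPM at day 14, against 0.427 and 0.368 CPM at day 1 (5.15 ± 0.35, adjusted p = 3.2e-10). Ak4 had 29.8 and 34.1 CPM in WT day 14, against 13.8 and 13.3 CPM in WT day 1. In each of them the KO day 1 libraries held the lowest values. Bnip3, a mitophagy receptor gene (1.54 ± 0.15, adjusted p = 7.31e-08), Fam162a (1.43 ± 0.15), Pdk1, which closes pyruvate entry into mitochondria (1.22 ± 0.16), the glucose transporter gene Slc2a1 (1.33 ± 0.11, adjusted p = 7.9e-09), Higd1a (0.98 ± 0.15), Ndrg1 (0.95 ± 0.09), Vegfa (0.72 ± 0.06) and Mxi1 (0.56 ± 0.10) also rose. Bnip3l (-0.09 ± 0.08), Kdm3a (0.10 ± 0.06), and Slc2a3 (0.16 ± 0.12) were not called, nor was Egln1 (0.26 ± 0.12). Egln1 was called without either WT day 28 library (0.26 in both), with no filter on low counts (0.25) and with only the 4 KO libraries (0.25).

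Glycolytic enzymes followed the same course. Of 17, 13 rose and 0 fell, with a median of 0.68, against 6 and 1 in WT with a median of 0.21, and 11 differences of change were called, each higher in KO. The WT counts were 3 without WT day 1 replicate 2 or WT day 14 replicate 2 for those that rose and 0 without any 1 of the 4 WT libraries for the one that fell, and differences lower in KO were 1 without either KO day 28 library or KO day 1 replicate 2 and 2 without either WT day 28 library. The summed level of the enzymes was 3575 and 3921 CPM in KO day 14, against 2176 and 2194 CPM in KO day 1. It was 4488 and 4321 CPM in WT day 14, against 4379 and 4169 CPM in WT day 1, so KO day 14 stayed below WT. Pfkl, a phosphofructokinase gene, had 106 and 119 CPM at day 14 and 32.6 and 35.4 CPM at day 1 (1.73 ± 0.17, adjusted p = 8.21e-08). Ldha, which regenerates NAD by making lactate, had 618 and 667 CPM at day 14, against 366 and 360.2 CPM at day 1 (0.82 ± 0.13, adjusted p = 3.29e-05). Ldha had 723 and 705 CPM in WT day 14, against 799.8 and 728 CPM in WT day 1. Tpi1 (1.17 ± 0.14), Pgk1 (1.12 ± 0.14), Aldoa (1.12 ± 0.14), Hk2 (0.95 ± 0.11), Eno1 (0.84 ± 0.13), Pkm (0.68 ± 0.10) and Gapdh (0.60 ± 0.10) rose. Several of these genes have processed pseudogenes, which can take a share of their reads.

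**Figure D3:**
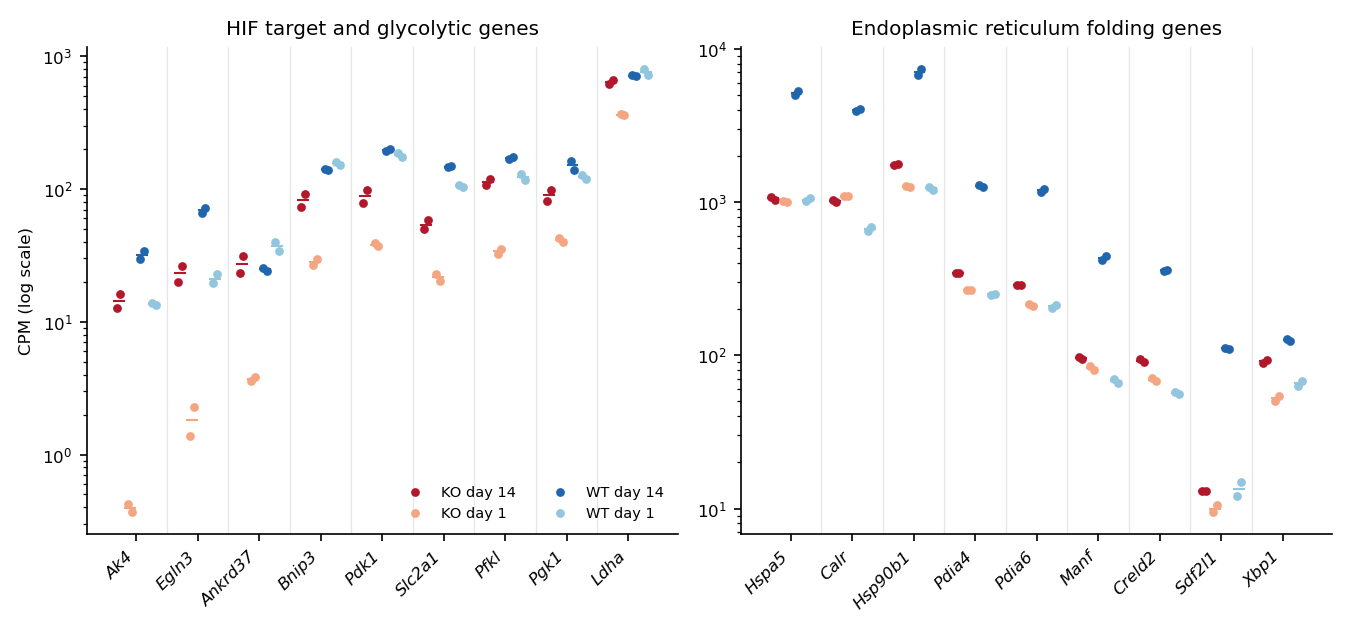
Level of HIF target and glycolytic genes (left panel) and endoplasmic reticulum folding genes (right panel) in each library (vertical axes, CPM on a log scale), with KO day 14, KO day 1, WT day 14 and WT day 1 side by side; points are single libraries and short lines the mean of 2. In the left panel KO day 1 is the lowest group for each gene, and in the right panel WT day 14 is the highest group for each gene, with Hspa5 at 4987 and 5262 CPM against 1080 and 1032 CPM in KO day 14.

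Folding enzymes of the endoplasmic reticulum rose little in KO while collagen rose. Of 20, 10 rose and 1 fell, but no change passed 0.80 and the median was 0.21. In WT 19 rose and 0 fell, with a median of 1.88. The difference of change was called lower in KO for 18 and higher for 0. Hspa5, the chaperone BiP, had 1080 and 1032 CPM at day 14 and 1014 and 996 CPM at day 1 and was not called (0.07 ± 0.07, adjusted p = 0.422). Hspa5 had 4987 and 5262 CPM in WT day 14, against 1012 and 1062 CPM in WT day 1 (difference -2.23 ± 0.10, adjusted p = 1.12e-12). Calr, the calcium-binding chaperone calreticulin, had 1024 and 994 CPM at day 14, against 1092 and 1090 CPM at day 1 (-0.11 ± 0.07, adjusted p = 0.213). Calr had 3909 and 4044 CPM in WT day 14, against 646 and 691 CPM in WT day 1. Hsp90b1, the paralog of cytosolic HSP90 in this compartment, had 1744 and 1763 CPM at day 14 and 1278 and 1252 CPM at day 1 (0.47 ± 0.09, adjusted p = 0.000227). The disulfide isomerase genes Pdia4 (0.36 ± 0.08) and Pdia6 (0.44 ± 0.07), Dnajc3 (0.46 ± 0.08), Creld2 (0.42 ± 0.07) and the transcription factor gene Xbp1 (0.80 ± 0.09) rose. The count of members that rose was 6 without KO day 14 replicate 1, and of those that fell 0 without either KO day 1 library or KO day 14 replicate 2.

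The promoters of many of these genes carry the endoplasmic reticulum stress response element, written CCAAT, then 9 bases of any kind, then CCACG, and searched on both strands of the same RefSeq windows. It was found in 9 of the 18 members with a window and in 16 of the 10537 tested genes with one, or 0.152%. The windows of Hspa5, on the plus strand at chr2:34771840-34772139, and Creld2, on the plus strand at chr15:88819396-88819695, are shown with the element in capitals because both genes rose several-fold in WT and at most slightly in KO. In Creld2 the element reads in the other direction.
Hspa5: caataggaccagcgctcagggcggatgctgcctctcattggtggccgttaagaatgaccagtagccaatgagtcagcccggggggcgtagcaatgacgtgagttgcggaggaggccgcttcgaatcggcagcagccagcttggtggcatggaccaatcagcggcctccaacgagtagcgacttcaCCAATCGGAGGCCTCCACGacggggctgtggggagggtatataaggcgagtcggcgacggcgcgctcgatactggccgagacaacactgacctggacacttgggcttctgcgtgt
Creld2: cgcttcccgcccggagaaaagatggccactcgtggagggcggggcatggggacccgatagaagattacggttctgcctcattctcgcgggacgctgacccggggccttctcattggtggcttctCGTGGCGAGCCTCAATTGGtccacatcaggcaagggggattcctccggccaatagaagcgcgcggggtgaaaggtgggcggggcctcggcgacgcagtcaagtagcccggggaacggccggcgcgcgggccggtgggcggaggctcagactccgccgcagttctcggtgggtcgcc

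More stress response genes fell than rose, while the aminoacyl-tRNA synthetases were divided. Of 30 genes of the integrated stress response, in which the factor ATF4 raises amino acid supply genes, 3 rose and 16 fell, with a median of -0.33, against 8 and 12 in WT with a median of -0.12. The difference of change was not called for 20 of the 30. Those that rose in KO were 5 without either WT day 28 library, those that rose in WT were 4 without WT day 1 replicate 1 and 3 without WT day 1 replicate 2 or WT day 14 replicate 1, and those that fell in WT were 6 without WT day 1 replicate 2 and 7 without WT day 14 replicate 2. Ddit3, the CHOP transcription factor gene, fell to 84.6 and 93.4 CPM at day 14, against 189 and 196 CPM at day 1 (-1.11 ± 0.09, adjusted p = 2.33e-09), and rose in WT (0.48 ± 0.08, adjusted p = 6.44e-05). Trib3, a pseudokinase gene induced by ATF4, fell to 22.4 and 24.9 CPM at day 14, against 61.0 and 57.8 CPM at day 1 (-1.33 ± 0.09, adjusted p = 1.38e-10). Atf3 (-1.61 ± 0.15) and the cystine carrier gene Slc7a11 (-1.35 ± 0.22) fell, Vldlr rose (1.46 ± 0.07), and Atf4 was not called (0.02 ± 0.06). Of 20 cytosolic aminoacyl-tRNA synthetases 6 rose and 7 fell, with Aars (-0.55 ± 0.07) and Farsb (0.47 ± 0.07) as examples; those that rose were 1 without KO day 1 replicate 1 and 2 without either KO day 14 library or KO day 1 replicate 2.

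Antigen presentation genes rose while most interferon-stimulated genes were not called. Of 13 genes of MHC class I presentation 9 rose and 1 fell, with a median of 1.19. The class I gene H2-K1 had 150.4 and 154 CPM at day 14, against 29.0 and 28.7 CPM at day 1 (2.40 ± 0.07, adjusted p = 1.45e-15), Psmb8, an immunoproteasome subunit gene, had 23.4 and 24.1 CPM at day 14 and 2.65 and 2.65 CPM at day 1 (3.16 ± 0.17, adjusted p = 8.38e-12), and the class I transactivator gene Nlrc5 had 80.0 and 77.0 CPM at day 14, against 14.6 and 17.3 CPM at day 1 (2.29 ± 0.12, adjusted p = 2.95e-12). H2-D1 (1.32 ± 0.07), H2-Q4 (1.66 ± 0.09), B2m (1.19 ± 0.06), Tap1 (1.12 ± 0.10) and Psmb9 (2.26 ± 0.25) rose. Class I genes are close paralogs, so reads may have been divided between them. WT counted 9 higher and 1 lower as well, with a median of 1.08. The lower count was 0 without any 1 of the 4 KO libraries in KO and 0 without any 1 of the 4 WT libraries in WT. Of 26 interferon-stimulated genes 8 rose and 0 fell in KO, with a median of 0.56, against 25 and 0 in WT with a median of 1.61, and the difference was called lower in KO for 17. The 8 became 5 without KO day 1 replicate 1 or KO day 14 replicate 2, and lower members were 1 without either WT day 1 library, either KO day 28 library or either WT day 28 library. Oasl2 had 6.80 and 7.37 CPM at day 14 and 3.16 and 3.16 CPM at day 1 (1.16 ± 0.20, adjusted p = 0.000109), Isg15 had 4.72 and 6.69 CPM at day 14, against 5.04 and 5.81 CPM at day 1 (0.07 ± 0.23, adjusted p = 0.833). Isg15 had 30.6 and 32.5 CPM in WT day 14, against 11.7 and 11.6 CPM in WT day 1. Of 9 complement genes 4 rose and 0 fell.

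Sterol synthesis fell across the pathway. Of 23 genes 0 rose and 21 fell, with a median of -0.65, and in WT 0 rose and 15 fell, with a median of -0.49. Hmgcs1, the synthase that makes HMG-CoA, fell to 129 and 119.8 CPM at day 14, against 229 and 242 CPM at day 1 (-0.92 ± 0.09, adjusted p = 6.25e-08), and Srebf2, the factor that drives the pathway, fell to 167 and 155 CPM at day 14, against 292 and 301 CPM at day 1 (-0.88 ± 0.07, adjusted p = 1.44e-09). Cyp51 (-0.85 ± 0.08), Nsdhl (-0.88 ± 0.14), Sqle (-0.75 ± 0.10) and Insig1 (-0.79 ± 0.08) fell too. The core of the sterol regulatory element, TCACNCCAC, was found on either strand in 1 of 16 windows of the list, that of Hmgcs1, and in 1.4% of the tested genes with a window. That window, on the plus strand at chr13:119690101-119690400, is shown with the core in capitals as the example of the pathway.
Hmgcs1: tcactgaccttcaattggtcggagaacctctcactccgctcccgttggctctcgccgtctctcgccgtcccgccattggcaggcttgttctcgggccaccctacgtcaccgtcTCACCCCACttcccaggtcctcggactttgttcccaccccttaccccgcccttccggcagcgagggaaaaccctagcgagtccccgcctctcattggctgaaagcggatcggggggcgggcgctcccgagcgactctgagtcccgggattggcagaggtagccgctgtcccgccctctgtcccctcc

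Fatty acid genes did not follow, with 4 of 13 higher and 5 lower. Me1 (0.70 ± 0.08) and Elovl6 (0.57 ± 0.12) rose and Acly (-0.32 ± 0.06) fell. The higher count was 2 without KO day 14 replicate 1, and the lower count was 2 without KO day 1 replicate 2 and 1 without KO day 14 replicate 2. The difference of change was called higher in KO for 7 of the 13.

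Cell division genes rose by small amounts. Of 34 mitosis genes 28 rose and 0 fell, with a median of 0.31 and no change above 0.75, against 12 and 2 in WT, and the difference was called higher in KO for 13. In WT the counts were 7 without WT day 1 replicate 2 and 6 without WT day 14 replicate 1 for those that rose and 0 without WT day 1 replicate 1 or WT day 14 replicate 2 and 1 without WT day 14 replicate 1 for those that fell, and the difference was called for 7 without either WT day 14 library, WT day 1 replicate 1, KO day 1 replicate 1 or KO day 14 replicate 2 and 8 without KO day 1 replicate 2 or KO day 14 replicate 1. Hmmr had 169 and 182 CPM at day 14 and 108 and 99.9 CPM at day 1 (0.75 ± 0.07, adjusted p = 3.67e-08), and the proliferation marker gene Mki67 had 1209 and 1235 CPM at day 14, against 1046 and 1043 CPM at day 1 (0.23 ± 0.06, adjusted p = 0.00464). Without KO day 14 replicate 2 the count of mitosis genes that rose in KO was 17 and Mki67 was not called (0.21). Bub1 (0.67 ± 0.07), Kif11 (0.48 ± 0.07) and Cdc20 (0.48 ± 0.08) were other examples. Of 33 DNA replication genes 15 rose and 4 fell, with Cdc6 at 0.72 ± 0.10 and the cyclin gene Ccne1 at -0.55 ± 0.12. Among 19 cyclins, inhibitors and RB family genes 5 rose (3 without KO day 1 replicate 1 or KO day 14 replicate 2) and 7 fell. Ccnd2 (-1.67 ± 0.15), Cdk6 (-0.96 ± 0.08) and the inhibitor gene Cdkn2b (-0.77 ± 0.14) fell. Of 24 p53 target genes 2 rose (1 without KO day 14 replicate 1) and 10 fell, among them Trp53inp1 (-0.83 ± 0.08) and Btg2 (-0.95 ± 0.13).

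**Figure D4:**
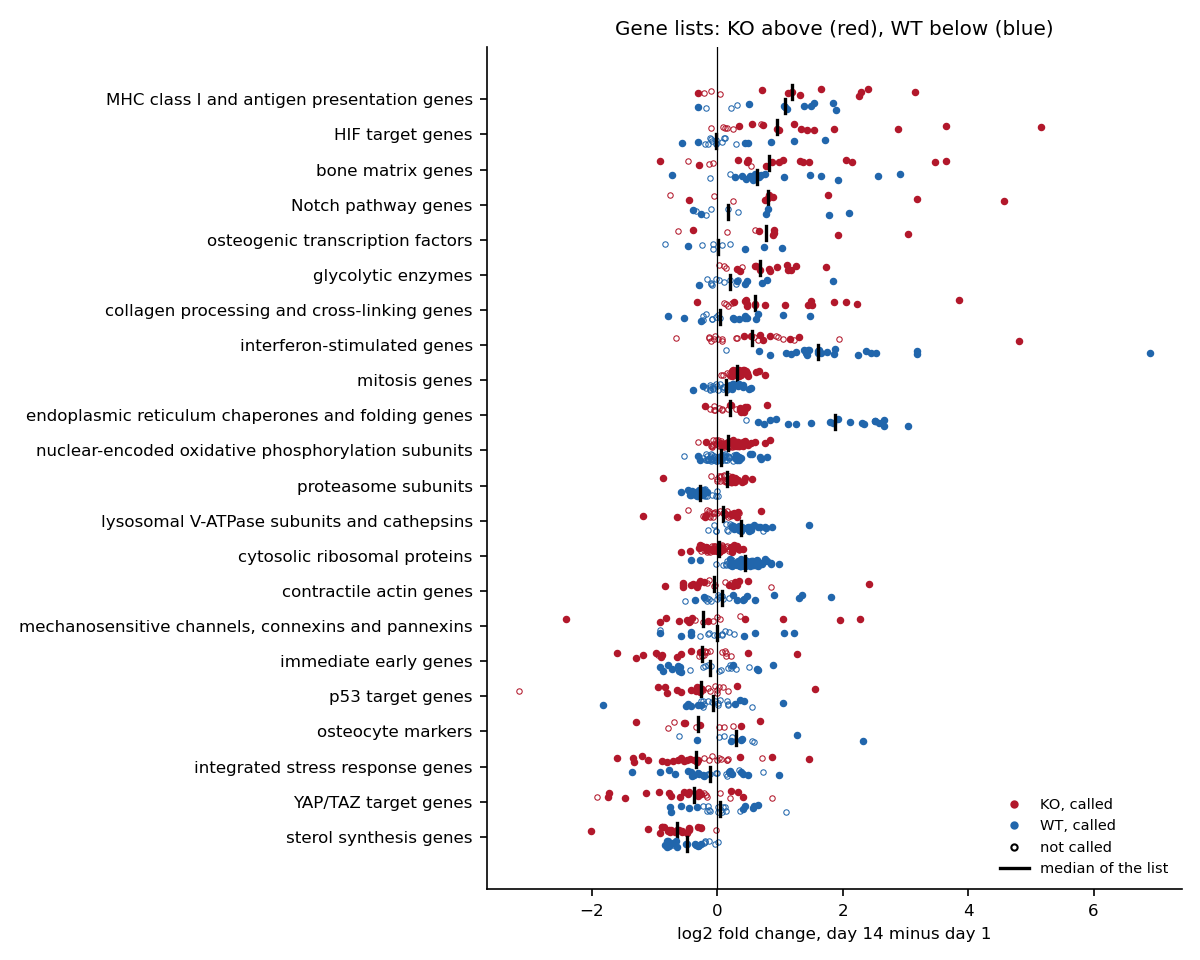
Log2 fold change of day 14 over day 1 (horizontal axis) for every tested member of 22 of the 49 gene lists, KO in red above WT in blue on each line; filled points were called at adjusted p below 0.05, open points were not, and black bars mark the median. The HIF target genes have a KO median of 0.95 and a WT median of -0.02, and the endoplasmic reticulum folding genes a KO median of 0.21 and a WT median of 1.88.

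Most YAP/TAZ targets, genes that answer to stretch and cell shape, fell. Of 24 such targets 3 rose and 14 fell in KO, with a median of -0.38, against 5 and 5 in WT with a median of 0.04, and the difference was called lower in KO for 11. An entry of the count table named for YAP and EGFP had 1 and 3 counts in KO at day 14, against 82 and 45 counts in WT at day 14. Its part in that difference, and in the WT changes of the other lists, was not tested. Ccn2, a secreted regulator that YAP induces, fell to 4.62 and 4.46 CPM at day 14, against 13.0 and 12.4 CPM at day 1 (-1.48 ± 0.18, adjusted p = 2.19e-06). Ccn2 had 14.3 and 11.2 CPM in WT day 14, against 11.6 and 14.0 CPM in WT day 1, without a call there. The ectonucleotidase gene Nt5e fell to 10.8 and 12.4 CPM at day 14, against 37.9 and 38.8 CPM at day 1 (-1.72 ± 0.11, adjusted p = 9.54e-11). Fjx1 (-1.74 ± 0.30), Ajuba (-1.14 ± 0.15), Ankrd1 (-0.93 ± 0.22) and the receptor kinase gene Axl (-0.77 ± 0.07) fell, and Amotl1 (0.33 ± 0.06) and Tgfb2 (0.40 ± 0.08) rose. Among 25 contractile actin genes 7 rose, 10 fell and 8 were not called, with a median of -0.05. The nonmuscle myosin gene Myh9, one of the 10 largest losses in CPM, fell to 2514 and 2437 CPM at day 14, against 3628 and 3603 CPM at day 1 (-0.55 ± 0.07, adjusted p = 2.19e-06), with Myh10 (-0.54 ± 0.06), Tagln (-0.83 ± 0.17) and Zyx (-0.54 ± 0.08) lower and Acta2 higher (0.49 ± 0.07). Of 26 immediate early genes 2 rose, 10 fell and 14 were not called, including Egr1 (-0.90 ± 0.12) and Nr4a1 (-1.30 ± 0.16).

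Among 19 mechanosensitive channels, connexins and pannexins 4 rose and 9 fell. The share that rose, 21.1%, was near the 19.4% of all genes, and the share that fell, 47.4%, was above their 18.0%. The connexin genes went in opposite directions. Gja1, the connexin 43 gene of osteocyte gap junctions, had 322 and 321 CPM at day 14, against 68.0 and 65.5 CPM at day 1 (2.27 ± 0.09, adjusted p = 2.01e-13), and Gjc1 had 12.2 and 11.7 CPM at day 14 and 66.0 and 61.6 CPM at day 1 (-2.42 ± 0.10, adjusted p = 2.75e-13). Both moved the same way in WT but less, with Gja1 at 1.22 ± 0.10 and Gjc1 at -0.91 ± 0.09, and the differences of change were 1.05 ± 0.13, adjusted p = 9.79e-06 and -1.51 ± 0.14, adjusted p = 2.27e-07. Piezo2, the other Piezo channel gene, had 4.53 and 3.26 CPM at day 14, against 0.940 and 1.03 CPM at day 1 (1.96 ± 0.28, adjusted p = 9.78e-06). Piezo2 had 26.6 and 28.0 CPM in WT day 14, against 30.6 and 30.0 CPM in WT day 1. The potassium channel gene Kcnk2 rose (1.05 ± 0.23, adjusted p = 0.00135), and the calcium channel genes Cacna1c (-0.91 ± 0.18) and Cacna2d1 (-0.81 ± 0.13) fell.

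Signalling genes were mixed. Of 20 secreted Wnt ligands and inhibitors 6 rose and 3 fell: the ligand gene Wnt4 (1.74 ± 0.13), the R-spondin gene Rspo3 (2.21 ± 0.15) and the inhibitor gene Frzb (2.11 ± 0.34) rose, and Wnt10b fell to 35.3 and 34.7 CPM at day 14, against 115 and 108 CPM at day 1 (-1.67 ± 0.12, adjusted p = 6.45e-10). Of 14 Wnt/beta-catenin targets 4 rose and 6 fell, with Nkd2 (2.68 ± 0.30) and Myc (0.49 ± 0.09) higher and Apcdd1 (-0.61 ± 0.11) lower. Of 23 BMP and TGF-beta genes 8 rose and 5 fell. The BMP inhibitor genes Nog (2.54 ± 0.31), Bambi (1.91 ± 0.14) and Smad6 (1.26 ± 0.12) and the target gene Id2 (1.88 ± 0.23) rose, and the activin subunit gene Inhba fell to 13.5 and 17.2 CPM at day 14, against 62.6 and 63.0 CPM at day 1 (-2.02 ± 0.10, adjusted p = 2.44e-12). Of 11 Notch pathway genes 7 rose and 1 fell, with a median of 0.80. Those that rose included the target gene Hey1 with 33.8 and 28.3 CPM at day 14 and 2.82 and 3.90 CPM at day 1 (3.19 ± 0.19, adjusted p = 5.92e-11), the ligand gene Jag2 (1.76 ± 0.30), the glycosyltransferase gene Lfng (0.88 ± 0.16) and Hes1 (0.80 ± 0.14). Of 28 axon guidance and dendrite genes 13 rose and 7 fell, with Sema3d (2.92 ± 0.19), Robo2 (1.53 ± 0.09) and Efnb2 (1.42 ± 0.09) higher and Sema3c lower (-1.52 ± 0.22). Of 13 genes of the insulin-like growth factor system 5 rose and 1 fell (2 without either WT day 28 library), with Igf2 at 2.15 ± 0.12, adjusted p = 1.76e-11 and the adaptor gene Irs2 at -0.78 ± 0.15, adjusted p = 0.000229.

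Protein turnover and synthesis genes moved by small amounts. Of 31 proteasome subunits 14 rose and 1 fell in KO, with a median of 0.16, while in WT 0 rose and 23 fell, with a median of -0.28. The difference of change was called higher in KO for 25. The 14 became 8 without KO day 1 replicate 1 or KO day 14 replicate 1 and 9 without KO day 1 replicate 2, and differences lower in KO were 1 without either KO day 28 library, either WT day 28 library or WT day 14 replicate 1. Psmd11, a lid subunit gene, had 115 and 109 CPM at day 14, against 81.9 and 83.2 CPM at day 1 (0.44 ± 0.07, adjusted p = 3.54e-05) and fell in WT (-0.34 ± 0.07, adjusted p = 0.000962), and Psmd8 was the one that fell in KO (-0.87 ± 0.07). Of 79 cytosolic ribosomal protein genes 10 rose and 9 fell in KO, with a median of 0.02 that turned to -0.02 with library totals in place of TMM. These shares, 12.7% and 11.4%, were under the 19.4% and 18.0% of all genes. In WT 68 rose and 2 fell, with a median of 0.45, and the difference was called lower in KO for 56. Rps20 fell to 229 and 237 CPM at day 14, against 338 and 360.4 CPM at day 1 (-0.58 ± 0.07, adjusted p = 4.78e-07) and rose in WT (0.44 ± 0.06, adjusted p = 1.41e-05). Ribosomal protein genes have many pseudogene copies, and the labels do not state how reads with several matches were counted. The KO counts were 4 without KO day 1 replicate 1 and 6 without KO day 14 replicate 2 for those that rose and 3 without KO day 1 replicate 2 and 1 without KO day 14 replicate 1 for those that fell, and the WT count of those that fell was 1 without WT day 14 replicate 2. Of 35 lysosomal V-ATPase and cathepsin genes 7 rose and 4 fell in KO. The share that rose was near the 19.4% of all genes, and the share that fell, 11.4%, was under their 18.0%. In WT 25 rose and 0 fell. The KO count of 7 became 3 without KO day 1 replicate 1 or KO day 14 replicate 2 and 4 without KO day 1 replicate 2 and 12 without either WT day 28 library, and the 4 became 2 without any 1 of the 4 KO libraries. The glycoprotein gene Gpnmb fell to 135 and 148 CPM at day 14, against 317 and 326 CPM at day 1 (-1.19 ± 0.08, adjusted p = 4.94e-10) and rose in WT (0.53 ± 0.08, adjusted p = 2.23e-05).

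Of 65 nuclear-encoded subunits of oxidative phosphorylation 24 rose and 1 fell, with a median of 0.17 and Cycs at 0.84 ± 0.16. The 24 became 11 without KO day 1 replicate 1, and the 1 became 0 without any 1 of the 4 KO libraries. The 12 mitochondrially encoded genes had 0 higher and 2 lower, mt-Nd4 (-0.36 ± 0.14, adjusted p = 0.0491) and mt-Cytb (-0.31 ± 0.12, adjusted p = 0.0421). Lower calls were 0 without any 1 of the 4 KO libraries and 6 without either WT day 28 library. These genes took 1.88% and 1.93% of all counts at day 14 and 2.31% and 2.31% at day 1, and the part of RNA quality in this was not tested. Other long or abundant transcripts with large losses in CPM were Vim (-0.38 ± 0.10, adjusted p = 0.00538), which was not called without KO day 14 replicate 1 (-0.36), Ddx5 (-0.60 ± 0.06), Tpt1 (-0.83 ± 0.09), Plec (-0.61 ± 0.10), Ahnak (-0.57 ± 0.06) and Npnt (-0.53 ± 0.10).

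Markers of 5 other cell types were scarce. The 6 tested adipocyte markers, 4 blood cell markers, 4 endothelial markers, 2 epithelial markers and 2 skeletal muscle markers gave 0 calls by edgeR at adjusted p below 0.05 (1 without either WT day 28 library or KO day 1 replicate 2, lower, and 1 without KO day 1 replicate 2 or KO day 14 replicate 2, higher). Summed levels of the blood cell list were 8.87 and 9.77 CPM at day 14 and 10.2 and 7.50 CPM at day 1. Cd3e, Epcam and Myod1, defining genes of T cells, epithelium and muscle, had 0 counts in all 4 KO libraries. Some of the markers listed for chondrocytes and for fibroblasts were not scarce. Chondrocyte markers gave 3 higher and 2 lower of 8, and their summed level was 2137 and 2100 CPM at day 14 and 614 and 619 CPM at day 1. Most of that sum was Col11a1, which had 2066 and 2031 CPM at day 14 and 532 and 540.5 CPM at day 1. The cartilage markers Col10a1, Col9a1 and Matn1 had at most 3 counts in any KO library and were not tested. Hapln1, which links cartilage proteoglycans (2.14 ± 0.24, adjusted p = 5.41e-07), and the cartilage factor gene Sox6 (2.61 ± 0.23, adjusted p = 1.5e-08) were higher and Sox5 (-1.26 ± 0.23, adjusted p = 0.000223) and Sox9 (-0.52 ± 0.09, adjusted p = 7.22e-05) lower, while the cartilage collagen gene Col2a1 was not called (-0.07 ± 0.46) and Acan had 1 count in each library. Of 8 fibroblast and tendon markers 6 rose and 1 fell, with a median of 1.06. Pdgfra (1.33 ± 0.11, adjusted p = 3.85e-09), Dcn (2.15 ± 0.20) and Col3a1 (3.47 ± 0.16) rose and the tendon factor gene Scx fell to 14.0 and 11.9 CPM at day 14, against 45.8 and 41.8 CPM at day 1 (-1.76 ± 0.11, adjusted p = 1.14e-10). The summed level of that list was 1292 and 1404 CPM at day 14 and 311.5 and 310.4 CPM at day 1, and the part of both lists in the matrix results was not tested.

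Set against WT over the whole transcriptome, the interval was partly shared. WT called 2505 genes (18.2%) higher and 2191 (15.9%) lower; with library totals in place of TMM the WT split was 2063 higher and 2958 lower. The WT count of lower genes was 1405 without WT day 1 replicate 2, 1436 without WT day 14 replicate 1 and 1355 without WT day 14 replicate 2. Of the 2675 genes higher in KO, 1199 (44.8%) were also higher in WT, 133 (4.97%) were lower there and 1343 (50.2%) were not called there. Of the 2483 lower in KO, 990 (39.9%) were lower in WT, 161 (6.48%) higher and 1332 (53.6%) not called. Across the 13772 genes the KO and WT changes had a Pearson r of 0.47 and a Spearman rho of 0.45, which describes genes and not independent replicates. These comparisons share no library with each other, only the scaling and the estimate of spread.

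The difference of change was higher in KO for 1266 genes (9.19%) and lower for 1329 (9.65%). The first count was 794 without KO day 1 replicate 1, 779 without KO day 1 replicate 2 and 765 without KO day 14 replicate 1. The counts were 2063 and 2030 when the 8 libraries of days 14 and 1 were fitted alone. Of the 8 lowest differences, Calr (-2.69 ± 0.10) and Sdf2l1 (-2.66 ± 0.16) belong to the folding list, and Ifi44 (-2.53 ± 0.65, not called at -2.30 without KO day 1 replicate 2) to the interferon list. The glucocorticoid-responsive factor gene Klf15 had 0.189 and 0.343 CPM at day 14 and 1.02 and 1.18 CPM at day 1. Klf15 had 66.7 and 66.0 CPM in WT day 14, against 28.3 and 32.7 CPM in WT day 1, so it rose in WT and fell in KO (difference -3.12 ± 0.70, adjusted p = 0.00324), a KO call lost without any 1 of the 4 KO libraries (-2.49 to -1.67). Palm3 (-3.29 ± 0.68), Ppm1l (-2.87 ± 0.28), the LIM protein gene Tes (-2.62 ± 0.26) and A830036E02Rik (-2.74 ± 0.23) were the others. Palm3 had 3 and 1 counts in KO day 14 and 9 and 12 in KO day 1. Its KO call was lost without KO day 1 replicate 2 (-2.04) or KO day 14 replicate 2 (-1.52). Of the 8 highest, Adamtsl1 (4.49 ± 0.57), Gpr35 (4.01 ± 0.61), Ak4 (3.93 ± 0.43) and Eln (3.74 ± 0.56) were genes that rose in both lines and, on the log2 scale, more in KO. Their KO day 1 counts were low, 1 and 4 for Adamtsl1, 3 and 4 for Gpr35, 5 and 5 for Ak4 and 6 and 6 for Eln. At day 14 each stayed lower in KO than in WT. Mean levels were 15.5 against 31.9 CPM for Adamtsl1 and 12.2 against 17.85 CPM for Gpr35. They were 14.4 against 31.95 CPM for Ak4 and 35.8 against 63.9 CPM for Eln. Cd248, a stromal glycoprotein gene, had 3.30 and 3.94 CPM at day 14, against 0.0854 and 0.441 CPM at day 1. Cd248 had 13.2 and 16.0 CPM in WT day 14, against 17.5 and 19.2 CPM in WT day 1 (4.01 ± 0.65, adjusted p = 0.000144). The heparan sulfate-cleaving enzyme gene Hpse was at 3.66 ± 0.49, adjusted p = 1.64e-05, with 1 and 3 counts in KO day 1. Hpse had 3.21 and 2.74 CPM in KO day 14, against 34.6 and 33.2 CPM in WT day 14. Spock2, a proteoglycan gene, had 7.08 and 5.14 CPM at day 14 and 1.45 and 2.06 CPM at day 1. Spock2 had 5.48 and 5.09 CPM in WT day 14, against 17.6 and 19.9 CPM in WT day 1, a rise in KO beside a fall in WT (3.59 ± 0.37, adjusted p = 8.91e-07). Ankrd37 (3.44 ± 0.29) completed them.

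**Figure D5:**
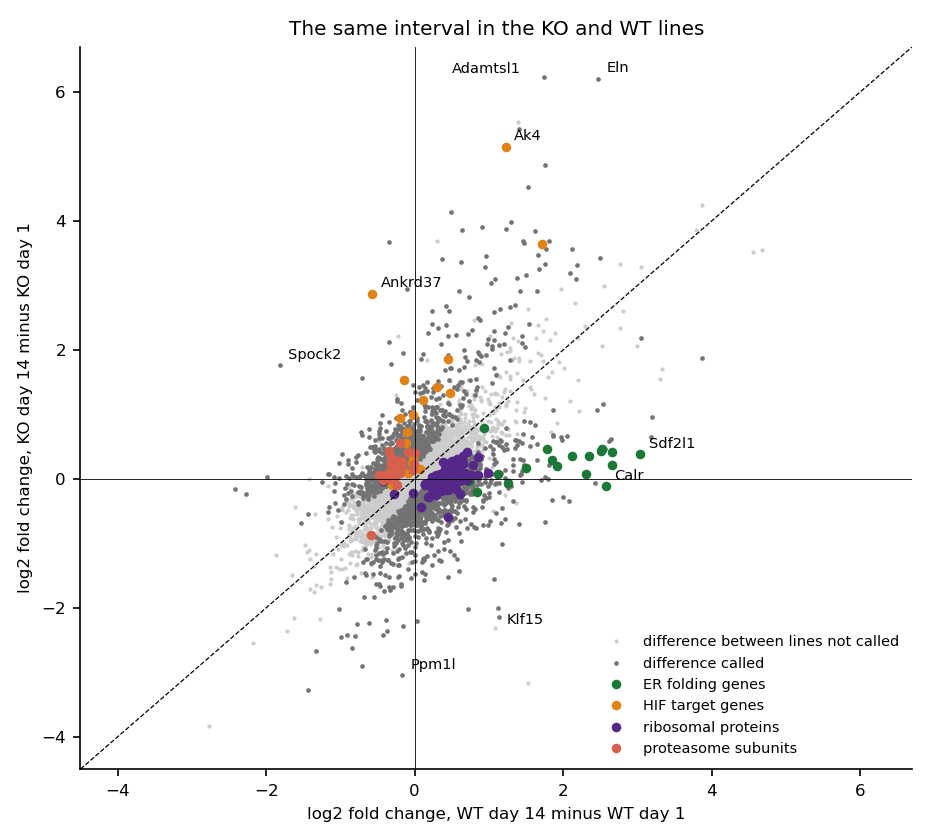
Log2 fold change of day 14 over day 1 in KO (vertical axis) against that in WT (horizontal axis) for 9906 genes with at least 10 CPM in 1 of the 4 groups; dark grey points have a called difference of change, and the dashed line marks equal change. Folding genes and ribosomal proteins lie mostly below the line, and HIF targets and proteasome subunits mostly above it.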

How the data were processed

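The 12 poly(A) libraries of OCY454 cells form 6 groups, KO and WT at days 1, 14 and 28. Values are raw counts per gene as deposited by the authors, with 32248 entries, 9345 of them 0 in every library. Per the submitters' processing notes, STAR, featureCounts of Subread and edgeR were used with mm10. Their versions, annotation, strand setting and rule for multiply matching reads were not given in the sources used here. Exons of 80 of the 249 genes named overlap those of another gene on either strand.

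From the counts, genes were filtered with filterByExpr (minimum 10), which left 13772, the 3 entries that are not mouse genes were left out, and edgeR 4.0.16 (R 4.3.3) fitted 1 coefficient per group with TMM scaling and its quasi-likelihood test, two-sided. Replicate numbers did not pair the libraries. The fit pools the spread of all 12 libraries (6 residual degrees of freedom). Alternatives were DESeq2 1.42.0, DESeq2 size factors, library totals, no filter, a filter of 10 CPM in 2 libraries, a replicate block, fewer libraries in the fit, and each library left out.

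Genes were named by rule: Piezo1; the 12 highest and 12 lowest KO changes with at least 10 CPM and no overlap; the 10 largest gains and losses in CPM; the 8 highest and 8 lowest differences; members of 49 gene lists. Members and lists were chosen with earlier results of these data known. Of the genes tested, 13656 were found in the GENCODE vM21 annotation (GRCm38), and promoter windows are RefSeq's (GRCm38.p6). Intervals on counts cover counting error only. A ratio against a group with 0 counts uses a floor of 3 counts over the group.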

Additional observations from a re-analysis of the deposited data

Results flagged for a closer look

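The genes in this section are set apart because their change between day 14 and day 1 differed between the KO and WT lines in edgeR's test of the difference itself (adjusted p below 0.05); values are that difference, KO minus WT, on the log2 scale. Among regulators and bone genes it was 0.90 ± 0.13 for Runx2, 0.97 ± 0.22 for Sp7, 0.96 ± 0.15 for Dlx5 and 1.07 ± 0.20 for Alpl. Sp7 was the one of these 4 not called with DESeq2. Matrix and surface genes with higher KO changes were Adamtsl1 (4.49 ± 0.57), Eln (3.74 ± 0.56), Cd248 (4.01 ± 0.65), Hpse (3.66 ± 0.49), Spock2 (3.59 ± 0.37), Mmp13 (2.23 ± 0.47), Gja1 (1.05 ± 0.13) and the receptor gene Gpr35 (4.01 ± 0.61). The HIF targets Ak4 (3.93 ± 0.43) and Ankrd37 (3.44 ± 0.29) and the clock gene Bhlhe40 (1.26 ± 0.15) were also higher. Lower KO changes were found for Piezo1 itself (-0.57 ± 0.09), for the folding genes Calr (-2.69 ± 0.10), Hspa5 (-2.23 ± 0.10) and Sdf2l1 (-2.66 ± 0.16), for Gjc1 (-1.51 ± 0.14), Ifi44 (-2.53 ± 0.65), Klf15 (-3.12 ± 0.70), Palm3 (-3.29 ± 0.68), Ppm1l (-2.87 ± 0.28), Tes (-2.62 ± 0.26), A830036E02Rik (-2.74 ± 0.23), Cxcl12 (-1.16 ± 0.11), Map1lc3b (-0.73 ± 0.10) and Txnip (-0.84 ± 0.17). Mmp13 was not called without WT day 1 replicate 2 (1.66), nor Ifi44 without KO day 1 replicate 2 (-2.30). Some of these differences rest on few KO counts, among them Hpse (1 and 3 counts in KO day 1) and Palm3 (3 and 1 counts in KO day 14).

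The count table also holds 3 entries that are not mouse genes. The one named for YAP and EGFP had 1 and 3 counts in the KO day 14 libraries and 1 and 0 in the KO day 1 libraries. It had 82 and 45 counts in the WT day 14 libraries and 2 and 3 in the WT day 1 libraries, so its lower WT day 14 value, 45, exceeded both day 1 values and the floor of 3 counts. At day 28 it had 7 and 2 counts in KO and 224 and 75 counts in WT. The labels name no such construct in any group, and how these reads arose was not tested. The WT day 14 libraries enter every WT change and every difference of change above, and the part of these reads in them was not tested either.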

How the results depend on the processing

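Of 249 genes named for their KO change, 216 kept their direction and their side of the threshold under every alternative run. Some directions turned, all of genes not called. With library totals in place of TMM these were Atf4 (-0.022) and Mepe (-0.014), and over the fits without 1 library Atf4 (-0.0058 to 0.044), Col2a1 (-0.19 to 0.045), Ifi44 (-0.55 to 1.25), Isg15 (-0.21 to 0.29), Mepe (-0.077 to 0.13), Ptprz1 (-0.74 to 0.13), Slc20a2 (-0.13 to 0.060) and Sost (-1.33 to 0.064). With DESeq2, Cd276, Col5a1, Dmp1, Fam20c, Mef2c, Slc20a1, Smpd3, Sox4, mt-Cytb and mt-Nd4 were not called. Dmp1 was also not called with library totals or the stricter filter, which dropped the mt-Cytb and mt-Nd4 calls too. With only the 4 KO libraries in the fit, Calr, Dstn, Egln1, Hspa5, Irx5, Msx1, Msx2 and Phospho1 were called. That fit called 3387 genes higher and 3270 lower of 12605, against 2675 and 2483 of 13772 in the main fit.

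The stricter filter (10 CPM in 2 libraries), which tests fewer genes, left 307 more than 2-fold higher and 181 lower in KO, 299 and 51 in WT, and 155 higher differences. Fitting only the 8 libraries gave 2063 higher and 2030 lower differences. DESeq2 called 2203 higher and 2010 lower in KO and 925 and 1039 differences. Over the fits without 1 library, KO counts were 1840 to 3102 higher and 1671 to 2882 lower (more than 2-fold, 486 to 607 and 357 to 472), WT counts 1734 to 2925 and 1355 to 2681 (520 to 645 and 171 to 243), and differences 765 to 1751 and 889 to 1757 (192 to 275 and 254 to 350). The replicate numbers did not pair the libraries (KO day 14 with KO day 1, r = 0.01; range over group pairs -0.04 to 0.11), and the replicate block gave 2677 higher and 2472 lower in KO, 2505 and 2189 in WT and 1251 and 1334 differences. With 2 libraries a group, changes of genes under a few CPM are the least certain.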

Other observations

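Cold-inducible RNA-binding genes, which rise when cells are kept below body temperature, fell in KO. Cirbp fell to 11.7 and 9.94 CPM at day 14, against 27.2 and 29.6 CPM at day 1 (-1.39 ± 0.15, adjusted p = 3.17e-07), and Rbm3 fell to 327 and 334 CPM at day 14, against 546 and 552 CPM at day 1 (-0.73 ± 0.07, adjusted p = 1.96e-08). Both fell in WT too (-1.02 ± 0.15 for Cirbp and -0.40 ± 0.06 for Rbm3). Both genes are on a list with heat shock and cytosolic chaperone genes, 18 in all, of which 4 rose and 5 fell. Cirbp and Rbm3 are among the 5, and the HSP110 gene Hsph1 was higher (0.85 ± 0.12, adjusted p = 1.18e-05). The lower count was 3 without KO day 1 replicate 1 or KO day 14 replicate 1. The shares of this list were 22.2% higher and 27.8% lower, against 19.4% and 18.0% of all genes. Of 29 antioxidant genes and targets of the factor NRF2, 7 rose and 6 fell. The shares, 24.1% and 20.7%, were near the 19.4% and 18.0% of all genes. Txnip, which encodes an inhibitor of thioredoxin, fell to 50.7 and 42.3 CPM at day 14, against 109 and 110.4 CPM at day 1 (-1.24 ± 0.09, adjusted p = 1.26e-09) and was at -0.41 ± 0.14, adjusted p = 0.0249 in WT (difference -0.84 ± 0.17, adjusted p = 0.00112). The WT call was lost with DESeq2 (-0.40) and without WT day 1 replicate 2 (-0.35) or either WT day 14 library (-0.35 and -0.44). The quinone reductase gene Nqo1 (-0.82 ± 0.13) and the heme oxygenase gene Hmox1 (-0.70 ± 0.10) fell, and the glutathione transferase gene Gsta4 rose (1.34 ± 0.29).

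Of 15 autophagy genes 2 rose, a count that became 1 without any 1 of the 4 KO libraries, either WT day 1 library or either KO day 28 library, and 5 fell, with the LC3 gene Map1lc3b at -0.45 ± 0.07, adjusted p = 3.04e-05 in KO and 0.28 ± 0.07, adjusted p = 0.00291 in WT (difference -0.73 ± 0.10, adjusted p = 1.71e-05). Of 15 NF-kB and chemokine genes 7 rose and 2 fell, and the 7 became 4 without either KO day 1 library or KO day 14 replicate 2. The adhesion molecule gene Vcam1 had 12.0 and 11.8 CPM at day 14 and 3.16 and 3.02 CPM at day 1 (1.95 ± 0.23, adjusted p = 9.23e-07), and the chemokine gene Cxcl12 fell (-0.47 ± 0.08, adjusted p = 9.2e-05) where it rose in WT (difference -1.16 ± 0.11, adjusted p = 3.6e-07). Of 16 clock genes 2 rose and 2 fell, with counts of 1 without either KO day 1 library or KO day 14 replicate 2 and 4 without either WT day 28 library for those that rose and 0 without either KO day 1 library or KO day 14 replicate 1 and 1 without KO day 14 replicate 2 and 4 without either WT day 28 library for those that fell. The clock shares, 12.5% higher and 12.5% lower, were under the 19.4% and 18.0% of all genes. The clock repressor gene Bhlhe40 had 141 and 176 CPM at day 14, against 95.8 and 107 CPM at day 1 (0.65 ± 0.11, adjusted p = 5.76e-05) and fell in WT (difference 1.26 ± 0.15, adjusted p = 3.28e-06). Of 3 tested neuronal markers the microtubule protein gene Map2 was called, with 32 counts over both day 14 libraries and 1 count over both day 1 libraries, a ratio of 36.4 (95% exact interval 6.07 to 1480, counting error only), and 2 members had 3 or fewer counts in a group.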
